A study of Rattus norvegicus with 4 samples.

Results

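Ribosome footprints of genes for the thick filament and the M-band of the sarcomere were followed in cardiomyocytes after knockdown of Cpeb4. The genes were chosen by an exact match of their symbol to a list of 10 names, and 9 of these were found among the 22250 genes of the count tables. They were the myosin heavy chains Myh6 and Myh7, the myosin binding protein Mybpc3, the myosin light chains Myl2, Myl3, Myl4 and Myl7, and the myomesins Myom1 and Myom2. Titin (Ttn) was not analysed here. All 9 passed the low-count filter, with at least 667 footprints per library.

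The cells were ventricular cardiomyocytes of Wistar rats aged 1 to 2 days, isolated with trypsin and a Percoll gradient and kept in primary culture. Controls received a control siRNA, the other cultures an siRNA against Cpeb4, an RNA-binding protein that regulates poly(A) tails and translation, and silencing lasted 72 h. Each group has 2 libraries, and no label states that these were independent cultures. The p-values below therefore cover the spread between libraries alone, which may be technical. The growth protocol, given alike for all 4 libraries, also names the mTOR inhibitor Torin1 at 250 nM for 24 h without saying which cultures received it. Footprints were recovered from polysome fractions after digestion with RNase I. No RNA-seq of the same cells was used here, and a level is therefore the amount of footprints on an mRNA and not its translation per transcript.

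The thick filament is built from myosin. Each myosin molecule has a pair of heavy chains that carry the motor, and each heavy chain binds an essential and a regulatory light chain. Rodent ventricles switch around birth from the slow β heavy chain, Myh7, to the fast α heavy chain, Myh6, and a return towards Myh7 is a classical sign of the fetal gene programme in stressed heart muscle. Mybpc3 binds the filament and tunes how the myosin heads reach actin. In the middle of the sarcomere the myomesins cross-link neighbouring thick filaments and anchor titin, forming the M-band.

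The libraries held between 3554011 and 5910911 footprints in genes. Cpeb4 fell from 65.5 ± 8.01 to 9.08 ± 1.27 CPM (counts per 1000000 gene counts of a library; SD, n = 2), so the targeted gene matched the labels. Defining cardiomyocyte markers were present: all 12 of a list headed by Tnnt2, Tnni3 and Actn2 were detected, and they summed to 21423 and 22697 CPM in the controls and to 22446 and 19712 CPM after Cpeb4 siRNA, ranges that overlap. The 12 fibroblast markers summed to 17979 and 16295 CPM in the controls and to 12305 and 12402 CPM after the siRNA. Footprints of fibroblast genes were thus present in each library, and the marker sum was lower in both siCpeb4 libraries. Col1a1, Fn1 and Col3a1 made up most of this sum. Of the 11 fibroblast markers tested, Col1a1, Fn1 and Fbln2 fell in edgeR, beside 1.87% of all genes. In both siCpeb4 libraries 6 of the 11 lay lower, beside 19.5% of all genes. The groups overlapped for Dcn, Lum, Postn, Fbln1 and Tcf21, and Col1a2 was listed at 0 in every library. That 0 need not show that Col1a2 RNA was absent. In such mixed cultures, fewer cells of a type, less RNA per cell and fewer footprints per mRNA cannot be told apart. Sums of the other marker lists overlapped between groups, except for 9 smooth muscle and pericyte markers. These summed to 5987 and 6046 CPM in the controls and to 6276 and 6656 CPM after the siRNA. Acta2 made up most of that sum, and none of the 9 was called. Replicate 2 of siCpeb4 holds reads of 29 to 33 nt and the other libraries reads of 29 to 34 nt, which adds a difference between the siCpeb4 replicates.

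No thick filament or M-band gene passed the test across all genes (edgeR, adjusted p under 0.05), against 3.41% of the 11335 genes tested, of which 1.54% were higher and 1.87% lower after the siRNA. At an unadjusted edgeR p under 0.05 there were 2, Myh7 and Myom2, against 16.1% of all genes. DESeq2 called none of the 9, and limma-voom called Myom2. The groups did not overlap in CPM for 4 of the 9 genes, against 46.0% of all genes tested. Of these 4, Myl2 and Myl7 were higher after the siRNA, as were 26.5% of all genes, and Myh7 and Myom2 were lower, as were 19.5% of all genes. The median log2 fold change of the 9 genes was -0.02, beside -0.003 over all genes, and 6 of 9 were negative, beside 50.5% of all genes. The fitted differences ran from -0.41 for Myom2 to 0.19 for Myl2.

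**Figure D1:**
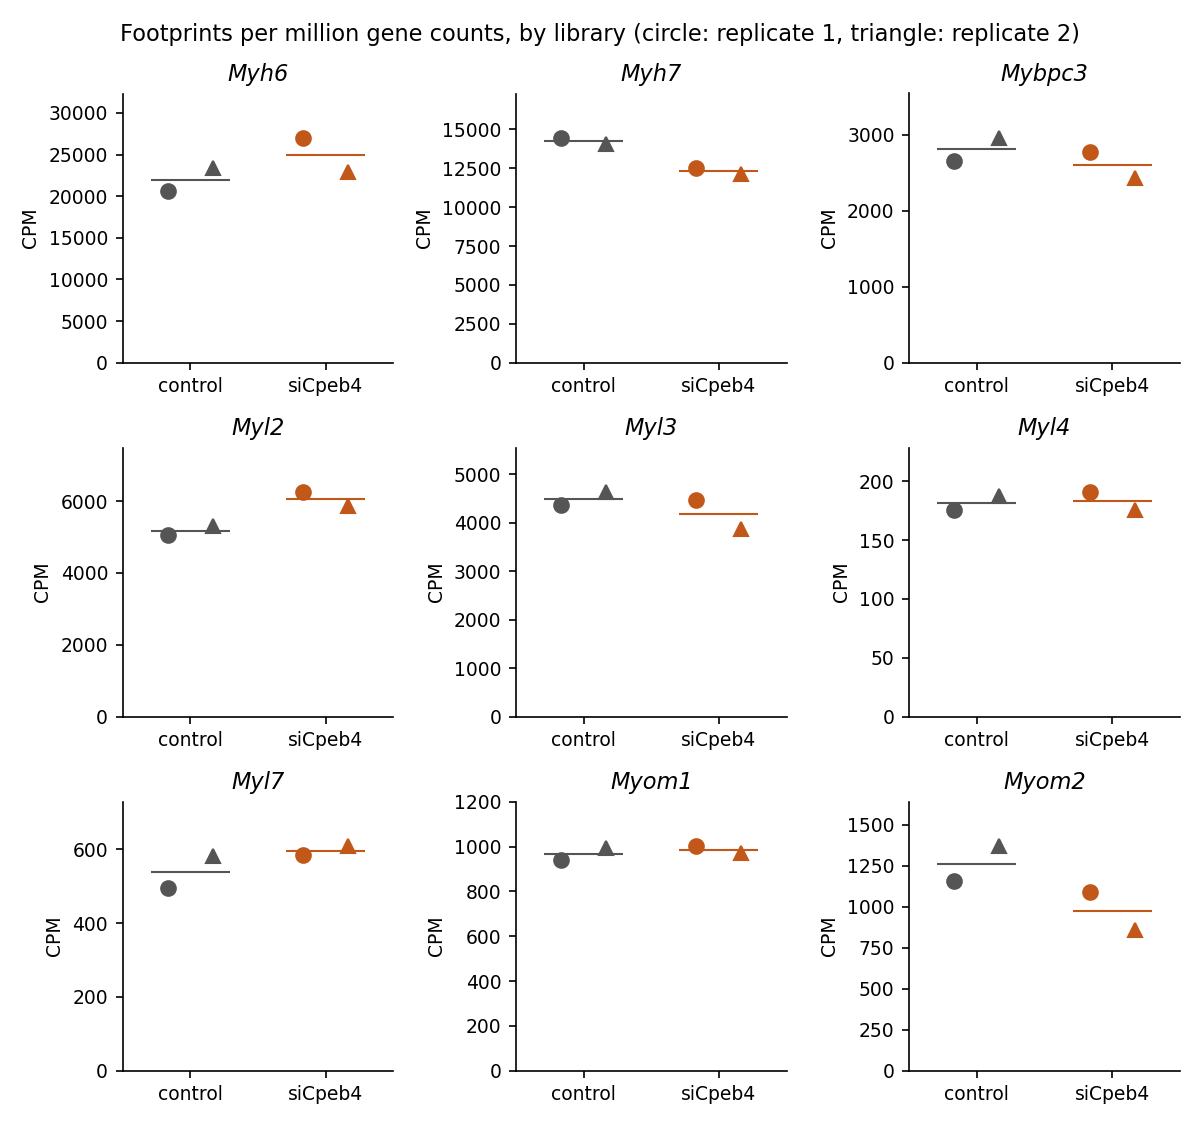
Footprint levels in CPM (vertical axes from 0) of the 9 genes in the 2 control and 2 siCpeb4 libraries, with circles for replicate 1, triangles for replicate 2 and lines at group means. Myh7 and Myom2 lie lower in both siCpeb4 libraries than in both controls, Myl2 and Myl7 lie higher, and the other 5 genes overlap.

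The genes together took 4.99% of all gene counts in control replicate 1, 5.35% in control replicate 2, 5.58% and 4.98% in replicates 1 and 2 after the siRNA. The lowest and the highest share were both seen after the siRNA, so the group means of 5.17% ± 0.25 and 5.28% ± 0.43 (SD, n = 2) differed by less than the replicates. An exact two-sided permutation test gave p = 1, where 2 libraries against 2 allow no p below 0.333. The exact binomial 95% intervals, which cover counting error only, ran from 4.97% to 5.01% in control replicate 1 and from 5.32% to 5.37% in control replicate 2, so the controls differed by more than counting error.

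The heavy chains had differences of opposite sign, and neither passed in the model of group alone. Myh7, the slow β heavy chain, had 14427 and 14087.5 CPM in control replicates 1 and 2 and 12538 and 12149 CPM in siCpeb4 replicates 1 and 2. Both siCpeb4 libraries were thus below both controls, and replicates of a group lay close together, 0.03 and 0.05 apart on the log2 scale. The log2 fold change of Myh7 was -0.24 ± 0.10 (SE; edgeR adjusted p = 0.242). Myh6, the fast α heavy chain, had 20596 and 23354 CPM in the controls and 26942 and 22851 CPM after the siRNA. Replicate 1 of siCpeb4 was the highest library, but siCpeb4 replicate 2 fell between the controls, and the replicates lay 0.18 and 0.24 apart on the log2 scale. Its log2 fold change was 0.15 ± 0.12 (SE; edgeR adjusted p = 0.568), and the estimate was 0.02 without siCpeb4 replicate 1 and 0.28 without siCpeb4 replicate 2.

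The ratio of Myh6 to Myh7 counts was higher in both siCpeb4 libraries than in both controls. It was 1.43 in control replicate 1 and 1.66 in control replicate 2, and 2.15 and 1.88 in replicates 1 and 2 after the siRNA. As a share of both heavy chains, Myh6 took 58.8% and 62.4% in the controls and 68.2% and 65.3% after the siRNA, with exact binomial 95% intervals of 58.6% to 59.0%, 62.1% to 62.6%, 68.0% to 68.5% and 65.1% to 65.5%. These intervals cover counting error only, and the replicates of each group stood farther apart than counting error allows. The mean log2 ratio was 0.62 ± 0.15 in the controls and 1.01 ± 0.14 after the siRNA (SD, n = 2), a difference of 0.39 that exceeds both SDs. The exact two-sided permutation p was 0.333, the smallest this design can give, and 0.444 after Benjamini-Hochberg adjustment over the 4 ratios tested, so this test cannot place the difference under 0.05. With each library left out in turn the difference ran from 0.28 without control replicate 1 to 0.49 without control replicate 2, and its sign is fixed by groups that do not overlap. The ratio does not depend on how libraries are scaled, and as it is not corrected for transcript length it compares libraries and not the abundance of the chains.

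Myh6 and Myh7 lie side by side in the rat RefSeq annotation (GRCr8) and encode closely related proteins. The deposited counts hold uniquely mapped reads, per the file names, so footprints from stretches identical in the genes would be missing from both. RefSeq lists Myh7 among the older synonyms of Myh6, and the genes are named here as the count tables name them, ENSRNOG00000025757 for Myh6 and ENSRNOG00000016983 for Myh7. Whether the counting used strand is not stated in these sources, so reads of an overlapping antisense RNA cannot be told apart.

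**Figure D2:**
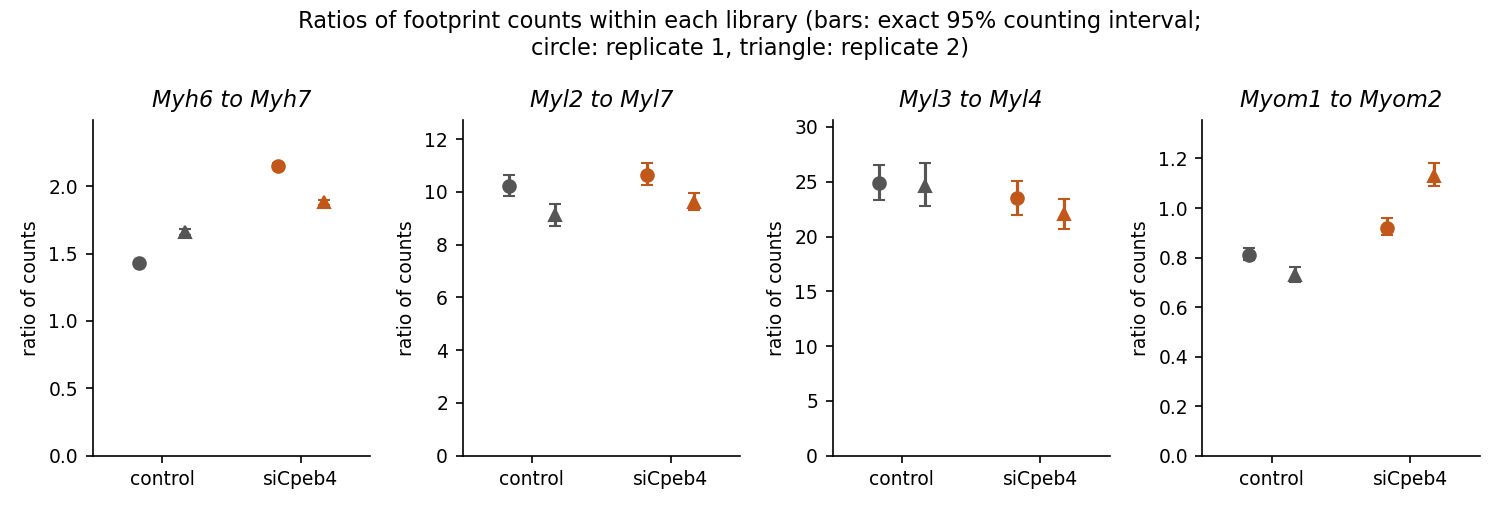
Ratios of footprint counts within each library for the heavy chains, the regulatory light chains, the essential light chains and the myomesins (vertical axes from 0), with circles for replicate 1, triangles for replicate 2 and bars for exact 95% counting intervals. The Myh6 to Myh7 ratio is 1.43 and 1.66 in controls and 2.15 and 1.88 after the siRNA, and the Myom1 to Myom2 ratio is 0.81 and 0.73 in controls and 0.92 and 1.13 after the siRNA.

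The profiles of the heavy chains over the libraries had near matches among genes with at least 50 CPM in every library. By the Euclidean distance between log2 CPM values centred on each gene's mean over the 4 libraries, the genes nearest to Myh7 among 3366 were Rmdn1 (distance 0.0154), the fibroblast collagen Col3a1 (0.0203) and the spliceosome gene Prpf6 (0.0232). Col3a1 had 3400.5 and 3304 CPM in the controls and 2899 and 2847 CPM after the siRNA. Nearest to Myh6 were Sugp2 (0.0272), Cpt1a (0.0343), which carries fatty acids towards mitochondrial oxidation, and Acacb (0.044), the enzyme that makes the inhibitor of CPT1. Cpt1a had 192 and 218 CPM in the controls and 257 and 211 CPM after the siRNA. With 4 libraries this likeness is a description. The lower fibroblast markers moved with the lower Myh7 level across the groups, and their part in the result was not tested.

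Myosin binding protein C, Mybpc3, had 2662 and 2955 CPM in the controls and 2776 and 2429 CPM after the siRNA. The groups overlapped, since siCpeb4 replicate 1 lay between the controls. The log2 fold change was -0.14 ± 0.11 (SE; edgeR adjusted p = 0.571), a difference no larger than the replicate differences of 0.15 and 0.19. Its profile over the 4 libraries was the closest to that of Myl3 among all pairs of the 9 genes (distance 0.05).

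Among the light chains, Myl2 had the clearest separation. Myl2, the regulatory light chain of the ventricle, had 5051 and 5314 CPM in the controls and 6245 and 5854 CPM after the siRNA, so both siCpeb4 libraries were above both controls. Its log2 fold change of 0.19 ± 0.10 (SE) did not pass (edgeR adjusted p = 0.361). Myl7, the regulatory light chain of the atrium, had 494 and 582 CPM in the controls and 586 and 608 CPM after the siRNA. Those groups just failed to overlap, as control replicate 2 lay directly below the siCpeb4 libraries. The log2 fold change of Myl7 was 0.12 ± 0.10 (SE; edgeR adjusted p = 0.631), smaller than the replicate difference of 0.24 in the controls.

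Myl3, the essential light chain of the ventricle, had 4372 and 4625 CPM in the controls and 4478 and 3872 CPM after the siRNA, and the groups overlapped. Its lowest value was in siCpeb4 replicate 2, and its log2 fold change was -0.14 ± 0.11 (SE; edgeR adjusted p = 0.577). Myl4, the essential light chain of atrial and embryonic muscle, had 176 and 188 CPM in the controls and 191 and 176 CPM after the siRNA. Its log2 fold change of -0.02 ± 0.11 (SE; edgeR adjusted p = 0.961) was positive under other scalings, at 0.01 with library totals alone and 0.08 when scaled to the cardiomyocyte markers.

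Ratios of ventricular to atrial light chain counts differed between groups by at most 0.12 in mean log2 ratio. The ratio of Myl2 to Myl7 counts was 10.23 and 9.13 in the controls and 10.66 and 9.63 after the siRNA, with overlapping groups (exact two-sided permutation p = 0.667, n = 2 per group). The ratio of Myl3 to Myl4 counts was 24.86 and 24.65 in the controls and 23.49 and 22.03 after the siRNA. Both siCpeb4 values were lower, by 0.12 in mean log2 ratio (exact two-sided permutation p = 0.333, n = 2 per group). The 95% counting interval of siCpeb4 replicate 1, 22.00 to 25.11, held both control values. That of siCpeb4 replicate 2, 20.70 to 23.46, lay below both. Of 8 further atrial markers, Kcna5 and Bmp10 had at most 9 counts in any library, and the sum of the list overlapped between groups, with 2453.5 and 2545 CPM in the controls and 1990.1 and 2939 CPM after the siRNA. Sarcolipin, Sln, was the 1 atrial marker called of 6 tested, beside 1.87% of all genes that fell. Its log2 fold change was -0.73 (edgeR adjusted p = 0.0333).

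Of the 9 genes, the myomesin Myom2 came closest to the threshold. Myom2, which encodes the M-protein of adult heart and fast skeletal muscle, had 1156 and 1367 CPM in the controls and 1086 and 858 CPM after the siRNA. Both siCpeb4 libraries were lower, but siCpeb4 replicate 1 lay close below control replicate 1, and the replicates differed by 0.24 in the controls and 0.34 after the siRNA on the log2 scale. The log2 fold change was -0.41 ± 0.12 (SE), the 444th smallest p of 11335 genes, and did not pass (edgeR adjusted p = 0.0656). With 1 library left out, an arm holds a single library, and the fit takes the spread from the other arm. Without siCpeb4 replicate 1 the value was -0.60 and passed (edgeR adjusted p = 0.0113), and without control replicate 1 it was -0.53 and passed (0.0265). Without control replicate 2 it was -0.27 (0.463) and without siCpeb4 replicate 2 it was -0.23 (0.424). The size and the call thus changed with the libraries kept. Relative to the control mean, Myom2 was at -0.21 in siCpeb4 replicate 1 and at -0.55 in siCpeb4 replicate 2. The narrower range of read lengths in that last library moved with this value, and its part in the result was not tested.

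Myom1, the myomesin of all striated muscle, had 942 and 993 CPM in the controls and 1001 and 972 CPM after the siRNA, with overlapping groups. Its log2 fold change was -0.001 ± 0.098 (SE; edgeR adjusted p = 0.997), and its sign changed to positive with library totals alone, with upper-quartile scaling and with scaling to the cardiomyocyte markers. The ratio of Myom1 to Myom2 counts was 0.81 and 0.73 in the controls and 0.92 and 1.13 after the siRNA. Both siCpeb4 values were higher, by 0.41 in mean log2 ratio, from -0.38 ± 0.12 to 0.03 ± 0.21 (SD; exact two-sided permutation p = 0.333, n = 2 per group), and the difference ranged from 0.26 to 0.56 with each library left out.

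**Figure D3:**
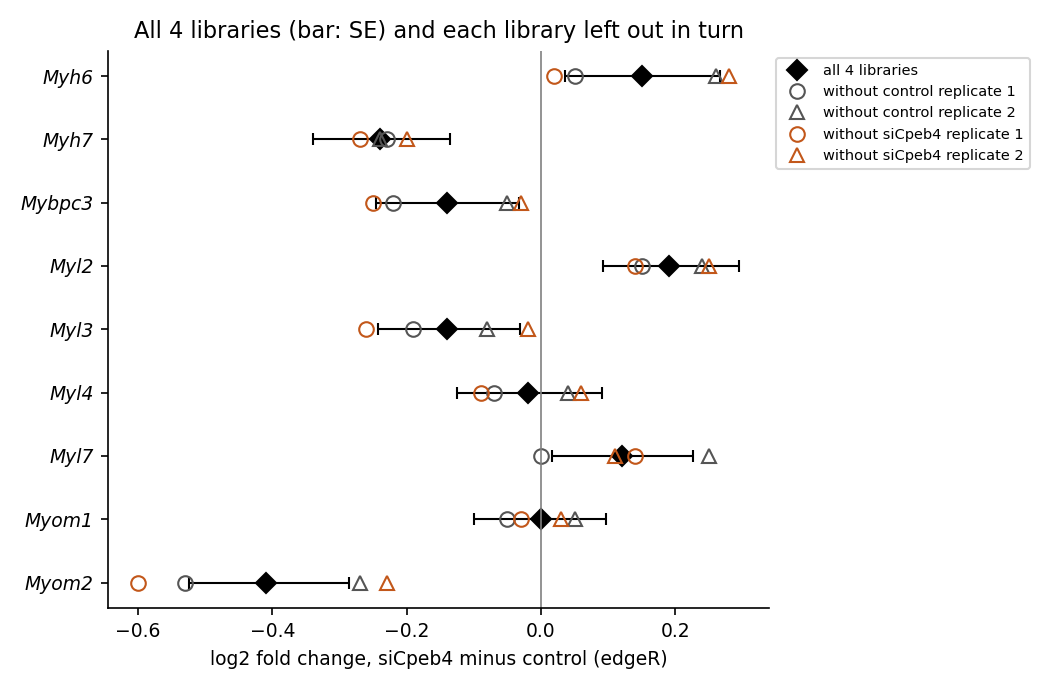
Log2 fold change after Cpeb4 siRNA (horizontal axis, siCpeb4 minus control, edgeR) for the 9 genes, from all 4 libraries (diamonds, bars for SE) and with each library left out (open symbols). Myh7 stays between -0.27 and -0.20, whereas Myom2 runs from -0.60 to -0.23 and Myh6 from 0.02 to 0.28.

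Replicates of a group differed in the same direction for most of these genes. Control replicate 2 was above control replicate 1 in 8 of the 9 genes, all but Myh7, and siCpeb4 replicate 2 was below siCpeb4 replicate 1 in 8 of the 9, all but Myl7. In 4 genes, Myh6, Myl3, Myl7 and Myom2, replicates of at least 1 group differed by over 0.2 on the log2 scale. Cardiomyocyte marker sums followed the same order of replicates, higher in control replicate 2 and lower in siCpeb4 replicate 2. Per count of these markers, the 9 genes together had 2.33 and 2.36 counts in the controls and 2.49 and 2.52 after the siRNA. On that scale, Myh6 had 0.961 and 1.03 counts in the controls and 1.2 and 1.16 after the siRNA. Myh7 had 0.673 and 0.621 in the controls and 0.559 and 0.616 after the siRNA. Myh7 in control replicate 2, at 0.621, lay close to siCpeb4 replicate 2, at 0.616. The share of all genes without overlap was not taken on this scale, so the separation of groups is not read here. Neither heavy chain passed (edgeR adjusted p = 0.193 for Myh6 and 0.633 for Myh7), and the median of all genes moved up by 0.10 on this scale.

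Among other genes of the M-band, of titin-associated signalling and of thick filament regulation, 1 of 25 tested rose and none fell (edgeR), beside 1.54% of all genes that rose and 1.87% that fell, and the median log2 fold change was 0.02. The gene that rose was Trim63, which encodes MuRF1, a ubiquitin ligase that sits at the M-band on titin and marks sarcomere proteins for degradation. It had 172 and 174 CPM in the controls and 298 and 262 CPM after the siRNA. Its fitted change was 1.59-fold, a log2 fold change of 0.67 ± 0.11 (SE; edgeR adjusted p = 0.000686). It ran from 0.56 to 0.77 with each library left out and passed each time, with the spread then taken from the arm that kept its pair. Its relatives Trim55 and Trim54, also known as MuRF2 and MuRF3, had log2 fold changes of -0.01 and -0.09 and were not called. The third myomesin, Myom3, had 17.6 and 23.9 CPM in the controls and 15.3 and 13.5 CPM after the siRNA, with -0.53 ± 0.21 (SE) as log2 fold change, and did not pass (edgeR adjusted p = 0.21). The mitochondrial creatine kinase Ckmt2, with -0.71 ± 0.23 (SE), did not pass (edgeR adjusted p = 0.1), nor did the phosphatase subunit Ppp1cb, with 0.32 ± 0.11 (SE; edgeR adjusted p = 0.108). The cytoskeletal linker Obsl1 lay at 0.02 and the cardiac myosin light chain kinase Mylk3 at -0.08, neither of them called.

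Of 11 genes tested for myosin folding and filament assembly, 1 fell and none rose (edgeR), beside 1.87% of all genes that fell and 1.54% that rose, with a median of -0.04. Bag3, a co-chaperone that helps clear damaged sarcomere proteins, fell. It had 184 and 211 CPM in the controls and 146 and 142 CPM after the siRNA, and its log2 fold change was -0.48 ± 0.11 (SE; edgeR adjusted p = 0.0154). That call ended without control replicate 2 (-0.37, edgeR adjusted p = 0.251), without siCpeb4 replicate 2 (-0.44, 0.0868) and when libraries were scaled to cardiomyocyte markers (-0.38, 0.351). The myosin chaperone Unc45b (0.02) and the methyltransferase Smyd1 (-0.10), which serve filament assembly, were not called. Hsp90aa1 was listed at 0 and Hspa8 at no more than 3 counts in every library. As most cells use these genes, such values need not show that the RNA was absent.

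Of 7 non-muscle and smooth muscle myosin genes tested, 1 rose and none fell (edgeR), again 1 call beside 1.54% of all genes that rose, with a median of 0.03. It was the regulatory light chain Myl9, at 1460 and 1535 CPM in the controls and 2315 and 1893 CPM after the siRNA (log2 fold change 0.46 ± 0.11 (SE); edgeR adjusted p = 0.0179). The call ended without control replicate 1 (0.42, edgeR adjusted p = 0.178), without siCpeb4 replicate 1 (0.30, 0.168) and in the fit with the replicate block (0.45, 0.05). The sum of the 9 smooth muscle and pericyte markers was also higher in both siCpeb4 libraries. Most of it was Acta2, with 3990 and 4051 CPM in the controls and 4373 and 4797 CPM after the siRNA. None of the 9 markers was called. In both siCpeb4 libraries 2 lay higher, beside 26.5% of all genes, and 2 lay lower, beside 19.5%. The part of these markers in the Myl9 result was not tested. The smooth muscle heavy chain Myh11 had a log2 fold change of 0.03, and the non-muscle heavy chain Myh9 was listed at 0 in every library. A value of 0 need not show that Myh9 RNA was absent. Of 11 skeletal muscle thick filament genes, 3 were tested and none was called by edgeR, limma-voom or DESeq2. The embryonic heavy chain Myh3 (-0.35 ± 0.12 (SE); edgeR adjusted p = 0.125) and the fast heavy chain Myh1 (-0.97 ± 0.34; 0.136) had an unadjusted edgeR p under 0.05, as did 16.1% of all genes. Myh3 had 92.1 and 107 CPM in the controls and 81.6 and 77.0 CPM after the siRNA. Myh1 had 37 and 41 counts in the controls and 22 and 26 after the siRNA, and its control replicates lay 0.87 apart in log2 CPM.

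**Figure D4:**
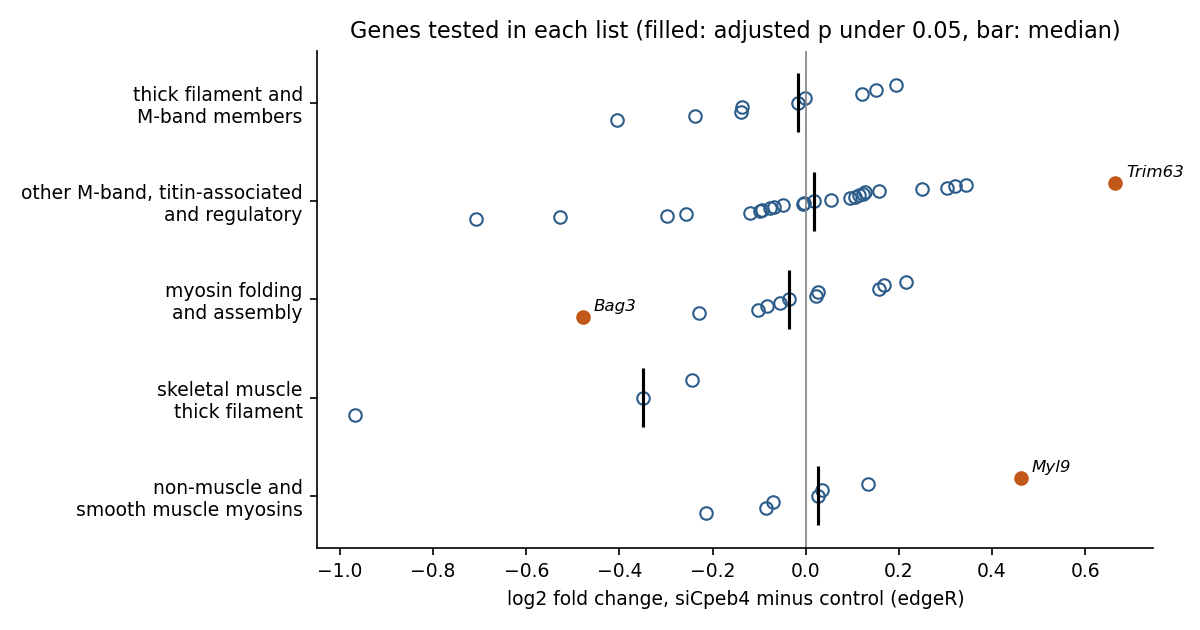
Log2 fold change after Cpeb4 siRNA (horizontal axis, siCpeb4 minus control, edgeR) for each gene tested in the thick filament and M-band list and in 4 lists of related genes, with filled symbols for adjusted p under 0.05 and bars at medians. Trim63 and Myl9 lie higher and Bag3 lower, and none of the 9 thick filament and M-band genes is filled.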

How the data were processed

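The deposited files hold raw counts of ribosome footprints per Ensembl gene, with no normalisation by the authors. The tools were HTSeq 0.12, STAR 2.7 and Bowtie2, with Rnor_6.0 as assembly, per the submitters' processing notes, which state no role for each, and per the file names only uniquely mapped reads of set lengths were kept. The 5 HTSeq summary rows stayed out of all totals, and reads without a feature were 4.42% to 4.63% of the reads counted.

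Levels are CPM, counts per 1000000 gene counts of a library. Genes were tested with edgeR 4.0.16 (quasi-likelihood, R 4.3.3), with TMM scaling, filterByExpr at a minimum count of 10 and a model of group alone, and p-values were adjusted by Benjamini-Hochberg over 11335 genes. Standard errors come from the F statistic. Ratios and shares were tested with exact permutation tests. Alternatives were other scalings, filters and thresholds, robust edgeR, DESeq2 1.42.0, limma-voom (limma 3.58.1), the replicate number as a block, and each library left out, where the single library of an arm is taken to vary like the other arm. Replicates differed by more than sampling noise (their chi-square over its degrees of freedom was 3 for controls and 5.32 for siCpeb4). The workflow was tested on simulated data.

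The genes and lists were chosen with earlier results of these data known. Named beside the 9 members were, from each related list, every gene called or otherwise the 3 with the smallest p, and for each heavy chain the 3 genes of most similar profile. Myom3, Ckmt2, Ppp1cb, Trim55, Trim54, Obsl1, Mylk3, Unc45b, Smyd1, Myh11, the example markers and the genes listed at 0 were named after their values were seen. The value of 1 list gene is not reported here.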

Additional observations from a re-analysis of the deposited data

How the results depend on the processing

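Among the alternatives that gave a fold change per gene, none changed the direction of Myh6, Myh7, Mybpc3, Myl2, Myl3 or Myom2. Of the uncalled genes near 0, Myom1 was at 0.03 with library totals alone, 0.01 with upper-quartile scaling and 0.10 when scaled to cardiomyocyte markers, and Myl4 at 0.01 with library totals alone and 0.08 with the markers. With 1 library left out, Myom1 ran from -0.05 to 0.05, Myl4 from -0.09 to 0.06 and Myl7 from -0.00 to 0.25. Myh7 did not pass without the low-count filter (edgeR adjusted p = 0.0533). The 9 genes gave 0 calls in edgeR with the main settings. They gave 1 call, Myom2, at an adjusted p under 0.10, with limma-voom (adjusted p = 0.0499) and without the low-count filter (edgeR adjusted p = 0.00187), and 0 to 1 with a library left out. Myom2 had adjusted p from 0.00187 to 0.463 over all these alternatives.

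Over all genes, 386 calls became 629 at an adjusted p under 0.10, 192 in DESeq2 and 606 without the low-count filter, which tests more genes, and 212 to 324 with a library left out. In the list of other M-band and regulatory genes, 1 call became 2 at an adjusted p under 0.10, 3 without the low-count filter and 1 to 2 with a library left out. The skeletal list gave 1 call, Myh1, without the filter. Calls ran from 0 to 1 with a library left out in the folding list and in the non-muscle list. Of all called genes, 45.1% were higher, and 62.6% when scaled to cardiomyocyte markers, an alternative chosen after seeing the data, as was leaving the fibroblast markers out of the totals. The cause of these shifts was not tested.

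The labels number the replicates without saying that a number marks a shared culture, and same-numbered deviations correlated at -0.11 over genes. With the replicate block there were 400 calls over all genes, 0 among the 9 genes and 0 among the non-muscle myosins. With the crossed replicate block, added after seeing the data, there were 479 calls, with 3 in the other M-band list and 2 among the 9 genes. These 2 were Myom2 and Myh7. The crossed block pairs libraries of unlike replicate number, a pairing that no label states.

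The difference in log2 ratio with a library left out ran from 0.28 to 0.49 for Myh6 to Myh7, from -0.01 to 0.15 for Myl2 to Myl7, from -0.17 to -0.08 for Myl3 to Myl4 and from 0.26 to 0.56 for Myom1 to Myom2. The share of footprints in the 9 genes differed by -0.190 to 0.417 percentage points with a library left out, so its direction was not stable. Leaving out the 20 most abundant genes removed Myh6, Myh7, Myl2 and Myl3, which have no value there. With 2 libraries per group, the spread between libraries and not counting error sets the precision of these genes.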
